A study of Mus musculus with 6 samples.

Results

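The transcripts described here are those of 10 genes that sit at the output end of cytokine signalling: the kinases Pim1, Pim2 and Pim3, the feedback inhibitors Cish, Socs1, Socs2 and Socs3, and the transcription factors Stat3, Stat5a and Stat5b. They were measured among 19938 genes in blood progenitors of mice with and without Cebpa. Members were taken from rows of the deposited table that name 1 gene only, keeping for each gene the row with the highest mean over the 6 arrays. All 10 were found, on 12 rows. The group was chosen from measured values, around the differences of Pim1 and Pim2 between the genotypes, so the genotype differences of its members are given as a description, without a test of their own.

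The cells were the CD150- part of the lineage-negative, Sca-1+, Kit+ (LSK) bone marrow compartment, where multipotent progenitors lie. Control mice were Cebpa fl/fl, with loxP sites around Cebpa, the gene of the myeloid transcription factor C/EBPα, and carried no Cre. Deleted mice were Cebpa fl/fl;Mx1Cre, in which the interferon-responsive Mx1 promoter drives Cre in any cell that answers to interferon. All mice received the double-stranded RNA pIpC, an inducer of interferon, and were killed on day 18, with 3 mice per genotype and 1 array per mouse. Since only the deleted mice carry Cre, the transgene and the loss of Cebpa cannot be told apart.

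Cytokine receptors of this class have no enzymatic activity of their own and rely on bound JAK kinases, which phosphorylate STAT proteins. Phosphorylated STATs enter the nucleus and switch on target genes, among them Cish, the Socs genes and the Pim genes. CIS and the SOCS proteins close a feedback loop by binding receptors or JAKs. The Pim serine/threonine kinases carry the signal on towards survival and growth. They are active as soon as they are made, so that the amount of transcript and the stability of the protein set their activity. In early blood cells STAT5 acts downstream of the receptors for thrombopoietin, interleukin-3 and GM-CSF, and STAT3 downstream of the G-CSF receptor.

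The members' start sites differ in whether they hold the letters a STAT dimer reads. RefSeq windows (GRCm38.p6), from 250 bases before to 50 bases after an annotated start, were matched for 9 of the 10 genes, with 12 windows. The STAT motif was searched as TTCNNNGAA, which reads the same on both strands, and a C/EBP motif as TTGCNNAA on both strands. The STAT letters were found in the windows of Cish, which has 2 matches, and of Socs3, which has 1, against 8.3% of all 32851 windows with at least 1 match and 0.457% with 2 or more. The C/EBP letters were found in 1 of the 12 windows, that of Pim2, against 10.8% of all windows. The stretches around these matches are given here 5′ to 3′ on the gene's strand, with the matched letters in capitals. The bases before the first start of Pim1, whose windows hold no match, are given beside them.
Cish, chr9:107296649-107296678, plus strand, from base -10 to base 20 of the start: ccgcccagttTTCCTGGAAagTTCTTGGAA
Socs3, chr11:117969492-117969540, minus strand, from base -174 to base -126: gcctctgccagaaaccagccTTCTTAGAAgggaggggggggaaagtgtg
Pim2, chrX:7878129-7878176, plus strand, from base -177 to base -130: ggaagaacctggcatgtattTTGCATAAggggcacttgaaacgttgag
Pim1, chr17:29490725-29490784, plus strand, from base -60 to base -1: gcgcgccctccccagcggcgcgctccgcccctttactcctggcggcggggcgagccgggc

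The window of this first start of Pim1 holds 81.3% G and C and 42 CpG pairs, that of a second start 49.0% and 5, and that of Pim2 62.7% and 31. The Cish window holds 53.3% and 11 CpG pairs, where the median over all windows was 52.7% and 7. A match is a run of letters and no measured binding site, and elements outside these windows were not searched.

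Before the members are described, the samples were checked against their labels. Cebpa was 3.27-fold lower in deleted samples, with controls at 7.84, 7.85 and 7.73 and deleted samples at 6.37, 5.82 and 6.09 (log2 -1.71 ± 0.14 SE, limma adjusted p = 0.000883). No source used here says whether this row's probes lie in the part removed by Cre. Of the markers sorted on, Kit read between 9.23 and 10.31 and Slamf1, which encodes CD150, between 3.48 and 4.86. Slamf1 read 3.48, 3.75 and 3.93 in controls and 3.94, 3.94 and 4.86 in deleted samples, and did not pass (log2 0.53 ± 0.24 SE, limma adjusted p = 0.314). Ly6a, which encodes Sca-1, was not analysed here. Of the other progenitor genes fixed as markers, Cd34 read between 11.19 and 11.62 and Flt3 between 8.96 and 9.99. Cd34 was lower in every deleted sample without passing (log2 -0.27 ± 0.10 SE, limma adjusted p = 0.232). Of the 4 measured progenitor genes Kit and Flt3 fell, with values given among the receptors, and 1 rose. That was Cd48, a surface protein of multipotent progenitors, which went from 9.87, 9.78 and 9.71 in controls to 10.96, 10.74 and 10.67 in deleted samples (log2 1.004 ± 0.11 SE, limma adjusted p = 0.0052). The part of these genes in the differences of the members was not tested. The labels call the mice female, whereas values of the Y-linked Kdm5d and Eif2s3y ran from 8.04 to 8.49 over the 6 arrays and those of Xist from 4.46 to 5.13, against a median of all values of 6.20. This mismatch is the same in both genotypes.

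Pim1 and Pim2 rose after deletion, and they were the only members past the threshold (limma, adjusted p under 0.05 over all genes tested). Pim3, the third kinase of the family, did not pass and was slightly lower in the deleted mean. Of the feedback inhibitors, Socs3 was higher and Socs2 lower in every deleted sample without passing the threshold, and Cish and Socs1 overlapped between the genotypes. Among the STATs, Stat3 was slightly higher in every deleted sample, and Stat5a and Stat5b overlapped. The members called were 2 of 10, both higher, where 1.43% of all genes were called, 0.702% higher and 0.732% lower. Because the group was built around this contrast, nothing is read from that count.

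Pim2 encodes a kinase with lymphoid and progenitor functions that overlaps with Pim1 in its substrates. Its log2 values were 6.76, 6.55 and 6.35 in control mice a, b and c, and 7.52, 7.25 and 7.39 in deleted mice a, b and c. All 3 deleted samples lay above all controls, and the controls were spread more widely than the deleted samples. The mean went from 6.55 ± 0.20 (SD, n = 3) to 7.39 ± 0.14 (SD, n = 3), a 1.79-fold rise (95% interval 1.46 to 2.19; log2 0.84 ± 0.13 SE). By size this difference ranked 172 of 19938.

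Pim1, first known as a gene activated by retroviral insertion in mouse lymphomas, encodes the founding kinase of the family. It read 7.38, 7.54 and 7.56 in control a, b and c, and 8.45, 8.03 and 8.05 in deleted a, b and c. Deleted a stood highest, and the genotypes did not overlap. The mean went from 7.49 ± 0.10 (SD, n = 3) to 8.17 ± 0.24 (SD, n = 3), a 1.61-fold rise (95% interval 1.30 to 1.98; log2 0.69 ± 0.13 SE), which ranked 347 by size.

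Both calls depended on single arrays. Pim1 lost its call when any one of the 6 arrays was left out, with log2 fold changes between 0.55 (without deleted a) and 0.76 (without deleted b), and also with the replicate block. Pim2 lost its call without control b, deleted a or deleted c, with values between 0.73 and 0.94 over the 6 omissions. Neither gene changed direction.

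Pim3 encodes the third kinase, which shares substrates with the others. It read 7.23, 7.04 and 7.01 in control a, b and c, and 6.97, 7.09 and 6.95 in deleted a, b and c. The genotypes overlapped, with a log2 fold change of -0.09 ± 0.11 (SE) and a 95% interval from -0.33 to 0.15. Within single arrays, with the control mean set to 0, the log2 difference Pim1 minus Pim3 was -0.25, 0.10 and 0.15 in controls and 1.08, 0.54 and 0.70 in deleted samples. Pim2 minus Pim3 was 0.07, 0.05 and -0.12 in controls and 1.09, 0.70 and 0.98 in deleted samples. Pim1 minus Pim2 lay between -0.32 and 0.27 on all arrays. These differences were not tested and support nothing, because Pim1 and Pim2 were chosen by their rise.

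**Figure D1:**
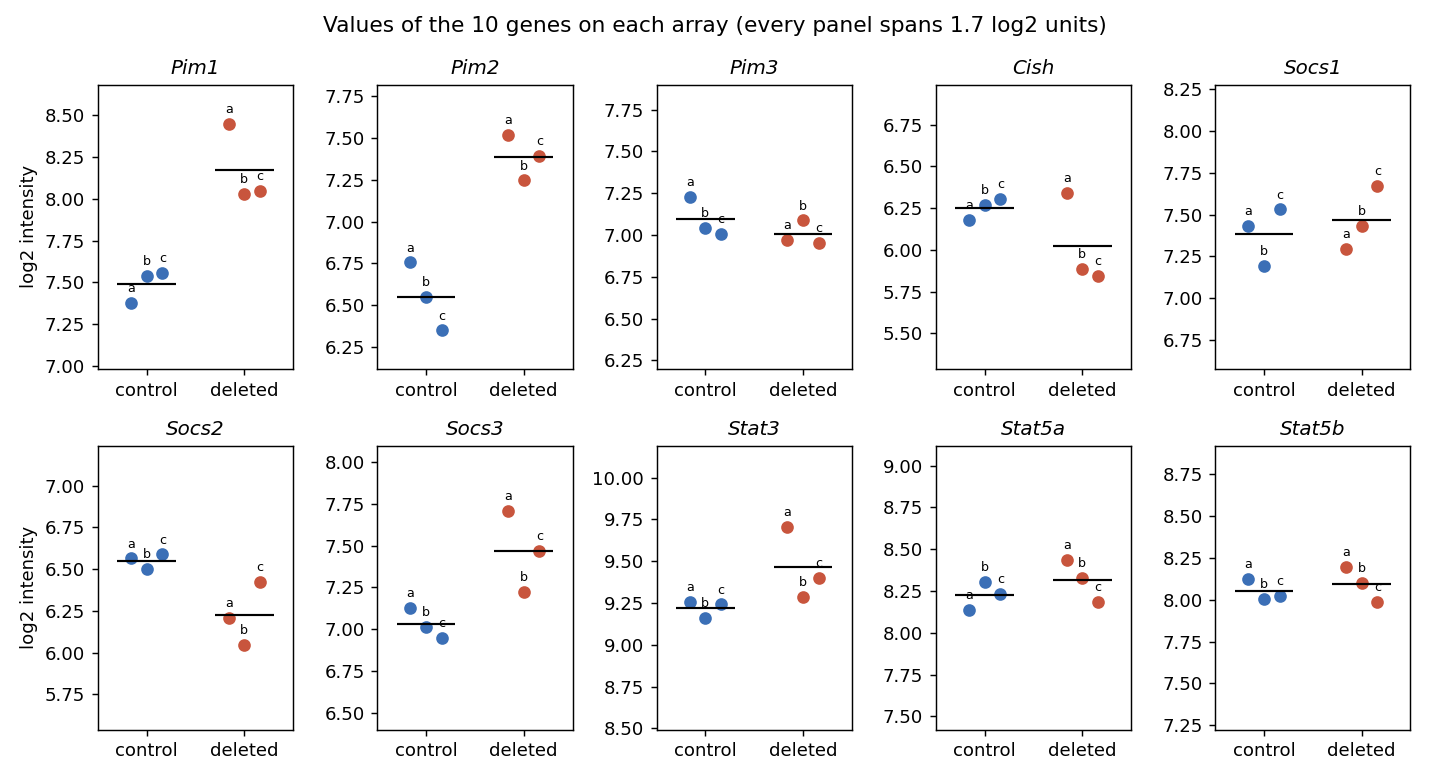
Log2 intensity of each of the 10 genes (vertical axes, 1.7 log2 units in every panel) in the control and deleted mice a, b and c; points are arrays and bars are group means. Pim1, Pim2, Socs3 and Stat3 lie above all controls in each deleted mouse, Socs2 lies below, and the other members overlap.

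The inhibitors did not move as 1 group. Socs3 encodes the inhibitor that acts on gp130 and on the G-CSF receptor. It read 7.13, 7.01 and 6.95 in control a, b and c, and 7.71, 7.22 and 7.47 in deleted a, b and c. The genotypes did not overlap, and deleted a was again the highest. The log2 fold change was 0.44 ± 0.13 (SE; 95% interval 0.14 to 0.74), a ratio of 1.35, and lay between 0.32 and 0.56 when single arrays were left out. A second row of Socs3, not used in the fit, read 6.18, 6.09 and 6.04 in controls and 6.39, 6.51 and 6.49 in deleted samples, a difference of 0.36 with no overlap. It reads the same RNA and is no independent sample.

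Socs2, an inhibitor of growth hormone receptor signalling and a STAT5 target, was at 6.56, 6.50 and 6.59 in control a, b and c, and at 6.21, 6.05 and 6.42 in deleted a, b and c. Every deleted sample lay below every control, with a log2 fold change of -0.33 ± 0.12 (SE; 95% interval -0.59 to -0.06). Its second row differed by -0.10 and overlapped, with 6.15, 6.39 and 6.11 in controls and 6.39, 6.13 and 5.82 in deleted samples. The rows of Socs2 therefore do not show the same separation. All of these values lie close to the median of all values, 6.20, and no detection calls were used here to separate signal from background.

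Cish encodes CIS, which competes with STAT5 for receptor docking and is a classical STAT5 target, and its start region carries the matched pair of STAT letters shown above. It read 6.18, 6.27 and 6.30 in control a, b and c, and 6.34, 5.88 and 5.84 in deleted a, b and c. Deleted a was above all controls, and deleted b and c were below all of them. The log2 fold change was -0.23 ± 0.14 (SE; 95% interval -0.54 to 0.09), and -0.39 without deleted a. These values too lie near 6.20.

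Socs1, the inhibitor of JAKs downstream of interferon receptors, read 7.43, 7.19 and 7.53 in control a, b and c, and 7.30, 7.43 and 7.67 in deleted a, b and c. The genotypes overlapped, with a log2 fold change of 0.08 ± 0.13 (SE; 95% interval -0.22 to 0.38). Its sign turned in 2 of 14 alternatives. Relative to the control mean, the within-array log2 difference Socs3 minus Socs2 was 0.09, 0.03 and -0.12 in controls and 1.02, 0.70 and 0.57 in deleted samples.

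Stat3, which carries signals of interleukin-6 and G-CSF, read 9.25, 9.16 and 9.24 in control a, b and c, and 9.71, 9.28 and 9.40 in deleted a, b and c. The genotypes did not overlap, but deleted b lay only just above the highest control. The log2 fold change was 0.25 ± 0.12 (SE; 95% interval -0.03 to 0.53) and fell to 0.12 without deleted a.

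Stat5a and Stat5b encode near-identical proteins that act downstream of most blood growth factors. Stat5a read 8.14, 8.30 and 8.23 in control a, b and c, and 8.44, 8.33 and 8.18 in deleted a, b and c. Stat5b read 8.12, 8.004 and 8.02 in control a, b and c, and 8.20, 8.10 and 7.99 in deleted a, b and c. Both overlapped between the genotypes. Their log2 fold changes were 0.09 ± 0.11 (SE; 95% interval -0.15 to 0.34) and 0.04 ± 0.10 (SE; 95% interval -0.19 to 0.28). The 3 STAT genes are direct neighbours on chromosome 11, in the order Stat5b, Stat5a, Stat3. Because Stat5a and Stat5b are so alike in sequence, signal shared between their probes cannot be told apart here.

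**Figure D2:**
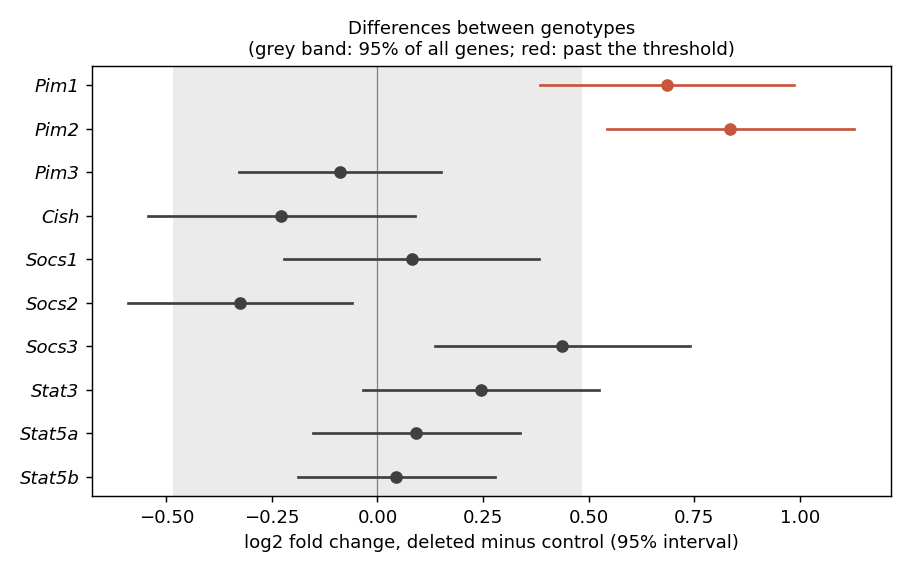
Log2 fold change, deleted minus control, of each gene with its 95% interval from limma; the grey band holds 95% of all genes (absolute value up to 0.48) and red marks genes past the threshold. The points of Pim1 and Pim2 lie outside the band and those of the other 8 inside it.

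Over the 10 members, 7 log2 fold changes were positive, with a median of 0.09, where 56.5% of all genes were positive, with a median of 0.03. Groups did not overlap for 4 members with the deleted samples above (12.5% of all genes) and for 1 with the deleted samples below (8.68% of all genes). The deleted samples were more spread out: 8 members had the larger SD there, as did 55.2% of all genes. Deleted a was the highest of the 3 deleted samples for 7 members, namely Pim1, Pim2, Cish, Socs3, Stat3, Stat5a and Stat5b, against 29.6% of all genes.

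**Figure D3:**
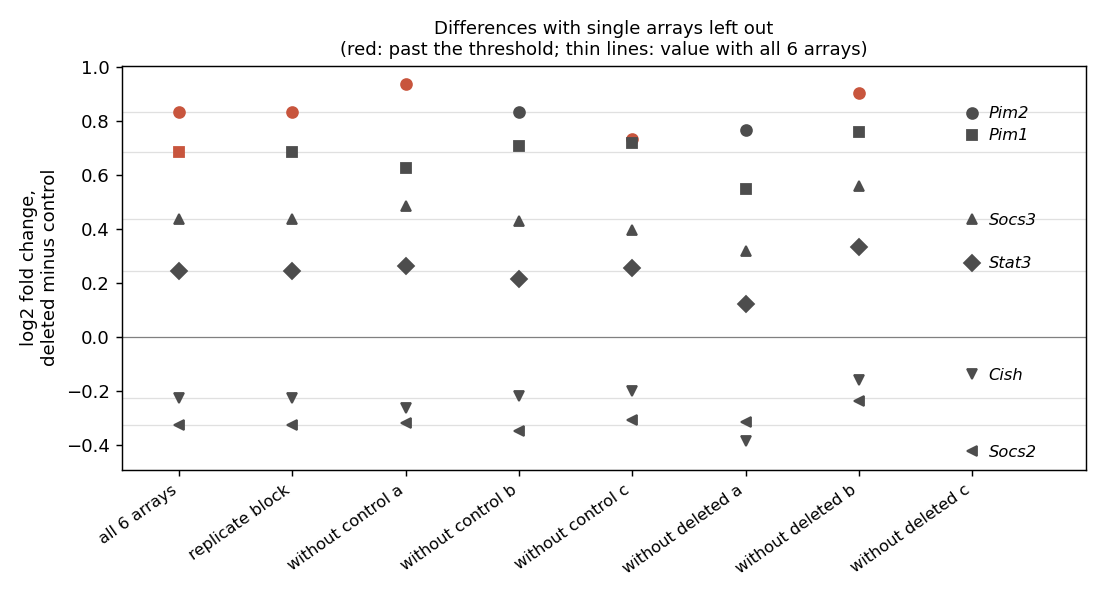
Log2 fold change (vertical axis) of 6 members with all 6 arrays, with the replicate block and with each array left out (horizontal axis); red marks values past the threshold and thin lines the value with all arrays. Pim1 is past the threshold only with all 6 arrays among these settings, and leaving out deleted a gives the lowest values of Pim1 (0.55), Socs3 (0.32) and Stat3 (0.12).

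Some marker genes of other cells differed between the genotypes too, and their part in the differences of the members was not tested. In bulk samples, fewer cells of a type and less RNA per cell cannot be told apart. Of 10 markers of mast cells and basophils, 2 rose. At an unadjusted p under 0.05, 3 were higher and 1 lower, where 9.1% of all genes were higher and 6.77% lower at that p. The log2 of their summed intensities went from a range of 9.39 to 9.47 in controls to one of 11.56 to 12.02 in deleted samples. Such sums are taken over unlogged intensities, so the brightest genes weigh most. The median log2 fold change of the 10 markers was 0.10. Cpa3, a mast cell carboxypeptidase, read 7.83, 7.91 and 8.01 in controls and 11.62, 11.28 and 11.25 in deleted samples. Gzmb, a granule protease, read 5.74, 5.83 and 5.67 in controls and 9.24, 7.18 and 7.42 in deleted samples. The call of Gzmb was lost with the robust prior (limma adjusted p = 0.0507) and without any array except deleted a. Cpa3 and Gzmb were both highest in deleted a, as were Pim1, Pim2 and 29.6% of all genes among the deleted samples. The other 8 markers did not pass, and 6 of the 10 read below 6.20 on every array, among them the IgE receptor subunits Fcer1a (4.49 to 5.09) and Ms4a2 (3.91 to 4.98). Cma1, the mast cell chymase, went the other way without passing, at 5.35, 5.14 and 5.10 in controls and 4.74, 4.65 and 4.85 in deleted samples (log2 -0.45 ± 0.11 SE, limma adjusted p = 0.087). Mcpt8, a basophil protease, read 6.72 to 7.26 in controls and 6.94 to 7.26 in deleted samples.

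Of 10 neutrophil markers 3 fell, namely S100a8, S100a9 and Camp, and the log2 of the summed intensities went from a range of 10.22 to 10.49 down to one of 8.63 to 8.72. Of these markers 6 read below 6.20 in all controls, 8 in all deleted samples and 5 on all 6 arrays. At an unadjusted p under 0.05, 4 were lower and 1 higher, where 6.77% of all genes were lower and 9.1% higher. The higher one, Cxcr2, a chemokine receptor, read 5.44, 5.82 and 5.63 in controls and 5.98, 6.26 and 6.04 in deleted samples. It was higher in every deleted sample and did not pass (log2 0.46 ± 0.13 SE, limma adjusted p = 0.122). Of 8 monocyte and macrophage markers Cd68 fell, with summed levels of 9.86 to 9.99 in controls and 9.52 to 9.77 in deleted samples. The median log2 fold change of the 8 was 0.06, and 5 were positive. On every array 4 of the 8 read below 6.20. At an unadjusted p under 0.05, 0 were higher and 2 lower. Summed levels of B cell markers, none of which passed, were 9.59 to 9.64 and 9.81 to 9.95. Those of T and NK cell markers were 8.81 to 8.89 and 8.84 to 8.96, and of erythroid markers 8.98 to 9.57 and 9.20 to 9.52. Those of megakaryocyte markers were 9.09 to 9.23 and 9.05 to 9.11, and of dendritic cell markers 10.50 to 10.94 and 10.53 to 10.66. None of these markers passed with limma. At an unadjusted p under 0.05, 1 T and NK cell, 1 B cell and 1 megakaryocyte marker were higher. At that p 1 megakaryocyte and 1 dendritic cell marker were lower, and no erythroid marker was either. The shares of all genes are the same 9.1% higher and 6.77% lower.

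Interferon response genes matter here because interferon signals through JAKs and STATs. Of 16 measured, none passed with limma, and 6 were higher and 1 lower at an unadjusted p under 0.05, against 9.1% and 6.77% of all genes. The list's median log2 fold change was 0.15, against 0.03 over all genes. The 2 with the smallest p were Ifit1, a sensor of foreign RNA, and its relative Ifit3. Ifit1 read 6.96, 6.96 and 7.06 in controls and 7.58, 7.34 and 7.68 in deleted samples (log2 0.54 ± 0.12 SE, limma adjusted p = 0.0573). Ifit3 read 6.74, 6.49 and 6.96 in controls and 8.26, 7.22 and 7.67 in deleted samples (log2 0.99 ± 0.23 SE, limma adjusted p = 0.0772). Ifit1 passed with the intensity filter and after quantile or cyclic loess scaling, and Ifit3 with the replicate block. Among the deleted samples Ifit3 was highest in deleted a, as were Pim1, Socs3 and 29.6% of all genes, whereas Ifit1 was highest in deleted c.

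The rest of the pathway was taken in lists written from general knowledge with earlier results of these data known. The calls below stand beside 1.43% of all genes called, 0.702% higher and 0.732% lower. Because of how the lists were written, nothing is read from their counts of calls. Ligands come first. Of 22 measured cytokine genes none passed with limma, and 5 were higher and 1 lower at an unadjusted p under 0.05, again against 9.1% and 6.77% of all genes. On every array 18 of the 22 read below 6.20, the median of all values. The 2 with the smallest p were Il15, a survival factor of lymphocytes, at 7.48, 8.51 and 7.76 in controls and 7.44, 7.12 and 7.08 in deleted samples (log2 -0.71 ± 0.23 SE, limma adjusted p = 0.178), and Epo, the erythroid growth factor (0.32 ± 0.12 SE, limma adjusted p = 0.243).

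Of 33 receptor genes 3 fell and none rose, with a list median of 0.02. At an unadjusted p under 0.05, 7 were higher and 4 lower, beside the same 9.1% and 6.77%. Csf2rb, the shared β chain of the interleukin-3 and GM-CSF receptors, read 6.61, 7.20 and 7.21 in controls and 7.97, 7.63 and 7.68 in deleted samples. It did not pass (log2 0.76 ± 0.17 SE, limma adjusted p = 0.0687), but did as higher with the intensity filter (0.0456). Csf3r, the G-CSF receptor, whose signal runs through STAT3 and is limited by SOCS3, read 7.97, 8.27 and 8.12 in control a, b and c and 7.52, 6.96 and 6.61 in deleted a, b and c. The receptor thus fell 2.13-fold (log2 -1.09 ± 0.20 SE, limma adjusted p = 0.0376), while Socs3 and Stat3 read higher in deleted samples without passing. Among the deleted samples, Csf3r, Socs3 and Stat3 were each highest in deleted a, as were 29.6% of all genes. A link between Csf3r, Socs3 and Stat3 was not tested. The tyrosine kinase receptors Kit, for stem cell factor, and Flt3, for FLT3 ligand, fell by 0.75 ± 0.13 and 0.71 ± 0.14 (SE; limma adjusted p = 0.027 and 0.0469). All 3 calls were lost when single arrays were left out: Flt3 for any array but deleted c, and Csf3r and Kit for any but deleted a.

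Of 6 measured JAKs and other STATs, none passed with limma, and 1 was lower at an unadjusted p under 0.05. That gene was Stat4, which carries interleukin-12 signals, with a log2 fold change of -0.48 ± 0.18 (SE, limma adjusted p = 0.23). Stat2, a partner of interferon signalling, differed by -0.07 ± 0.09 (SE, limma adjusted p = 0.772).

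Of 18 other negative regulators 2 rose, with a list median of 0.06. Ptpn1, which encodes the phosphatase PTP1B that acts on JAK2 and TYK2, read 7.35, 7.03 and 7.23 in controls and 7.86, 7.97 and 7.78 in deleted samples (log2 0.67 ± 0.12 SE, limma adjusted p = 0.0293). Its call was lost without any array except control a, and with the replicate block (adjusted p = 0.0517). Socs6, a more distant member of the SOCS family, read 6.11, 6.49 and 6.91 in controls and 7.37, 7.81 and 7.41 in deleted samples (log2 1.02 ± 0.20 SE, limma adjusted p = 0.0409). The other 2 rows of Socs6 differed by 0.11 and 0.21, and with the mean of its 3 rows the log2 fold change was 0.45 and the call was lost (limma adjusted p = 0.117). It was also lost without any array except control c. Socs4, Socs5 and Socs7, the remaining family members, had log2 fold changes of 0.22, -0.03 and -0.10 and did not pass.

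Of 20 other known targets of STAT5 and STAT3, 1 rose, and the list median was 0.07. It was Cebpd, which encodes C/EBPδ, a STAT3 target in several tissues and a relative of the deleted factor. It read 6.62, 6.60 and 6.68 in controls and 7.10, 7.20 and 7.25 in deleted samples (log2 0.55 ± 0.10 SE, limma adjusted p = 0.0336). The call was lost when any single array was left out and with the replicate block (adjusted p = 0.0579). Bcl3, a coregulator of NF-κB, differed by 0.58 ± 0.13 (SE) and did not pass in that fit, with a limma adjusted p of 0.0632, but did with the intensity filter and without deleted c. Some other genes of this list were picked for naming once their values were known, and none of them passed in that fit. They were the survival genes Bcl2l1 (0.09) and Bcl2 (-0.31), the cell cycle gene Ccnd2 (-0.46), Bcl6 (0.14), Mcl1 (0.18), Myc (0.18) and Hif1a (0.42). Ccnd2 passed as lower with an intensity trend, the intensity filter, and quantile or cyclic loess scaling.

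Of 19 genes of known Pim substrates 1 rose, with a list median of -0.03. Runx3, a transcription factor of lymphoid and blood cells, read 8.34, 8.25 and 8.21 in controls and 8.96, 9.04 and 8.93 in deleted samples (log2 0.71 ± 0.10 SE, limma adjusted p = 0.0119). Its call was lost without control b or deleted b, with an adjusted p of 0.0576 and 0.0573. Cdkn1b, which encodes the cell cycle inhibitor p27, had the next smallest p and did not pass. Its brightest row read 9.96, 9.65 and 9.74 in controls and 10.06, 10.16 and 10.29 in deleted samples, without overlap (log2 0.39 ± 0.12 SE, limma adjusted p = 0.152). With the mean of all rows of Cdkn1b the log2 fold change was 0.09 (limma adjusted p = 0.79).

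**Figure D4:**
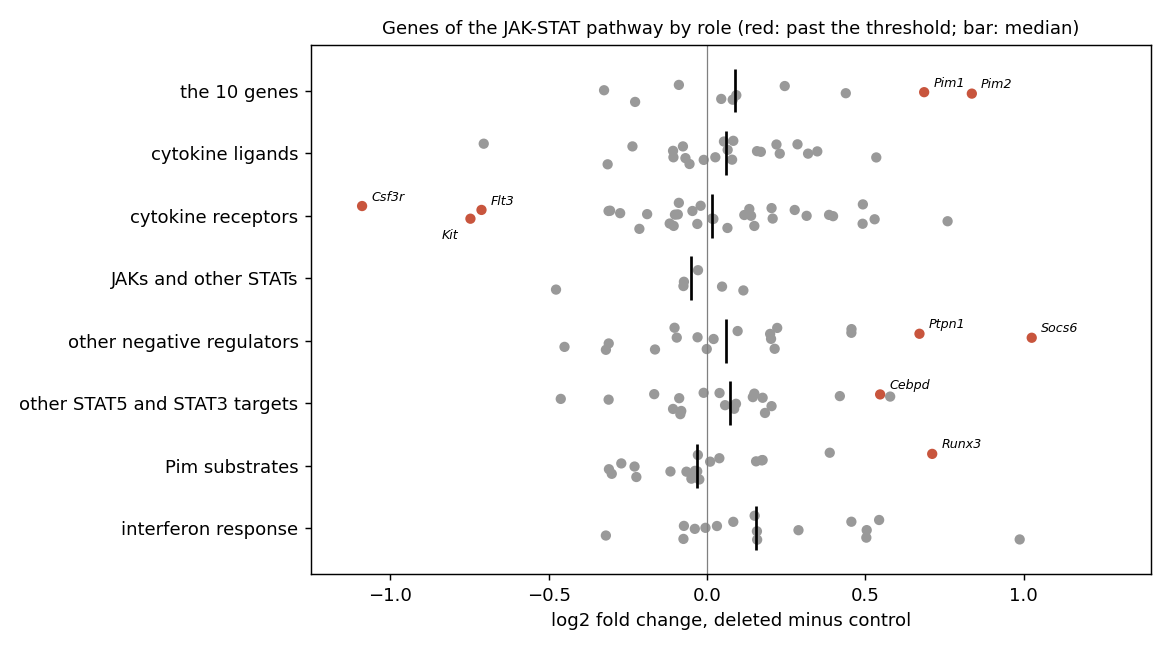
Log2 fold change, deleted minus control (horizontal axis), of the 10 genes and of the genes of each pathway list (points, with arbitrary vertical scatter); bars are list medians and red points with names are past the threshold. Medians lie between -0.05 and 0.15, and the points past the threshold run from 0 (cytokine ligands) to 3 (cytokine receptors) per list, where 1.43% of all genes were called.

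To place Pim1 and Pim2 among all genes, the root mean square difference of the log2 values over the 6 arrays was taken after subtracting each gene's control mean, over 9448 genes of at least median intensity. For Pim1 the nearest were Fut8, a fucosyltransferase (0.07), Smim3 (0.09) and Crnkl1, a splicing factor (0.09). Crnkl1 passed the threshold as higher, and Fut8 and Smim3 did not pass. Fut8 read 8.87, 9.20 and 9.18 in control a, b and c and 10.08, 9.54 and 9.54 in deleted a, b and c, so it shares with Pim1 the low control a and the high deleted a. For Pim2 the nearest were Apool, a mitochondrial inner membrane protein (0.10), Dpp4, a surface peptidase (0.14), and Mospd1 (0.15). Apool and Dpp4 passed as higher, and Mospd1 did not pass. Apool and Mospd1 lie on the X chromosome, as does Pim2, where 2.61% of the compared genes lie. Pim1 and Pim2 differed from each other by 0.22, with 204 genes nearer to Pim1 and 42 nearer to Pim2. These are descriptions over 6 arrays, and no shared control is read from them.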

How the data were processed

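Per the submitters' processing notes, RMA and Affymetrix Expression Console 1.1.2 were used on the Affymetrix Mouse Gene 1.0 ST arrays, and the authors' deposited values are log2 intensities of probe sets. No source used here gives the settings or the annotation build. All 35556 rows were used as deposited, none with missing values. Array medians lay between 6.16 and 6.23. Rows were named with a platform table in which 21789 rows name 1 gene, 1621 several and 12146 none. For the 999 genes with several rows the brightest was kept, and no dim row was filtered out.

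The comparison of genotypes used lmFit and eBayes of limma 3.58.1 (R 4.3.3; two-sided, no block), with Benjamini-Hochberg adjustment over 19938 genes and a threshold of 0.05. Fold changes are deleted minus control. The SE is the moderated one, with 5.52 prior degrees of freedom. The fit was tested on simulated data. The number of arrays limits the precision. Promoter matches and figures were made in Python 3.11.15 with pandas 2.3.3, NumPy 2.4.6 and matplotlib 3.10.9.

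Members, lists and tests were chosen with earlier results of these data known. Genes were named by a rule: all members, the genes past the threshold in each pathway and marker list (in pathway lists at least the 2 of smallest p where fewer than 2 passed), Cebpa, and the 3 genes nearest to Pim1 and Pim2. Socs4, Socs5, Socs7, Csf2rb, Cxcr2, Cma1, Fcer1a, Ms4a2 and Mcpt8 were named after their values were seen. So were Bcl2l1, Bcl2, Ccnd2, Bcl6, Mcl1, Myc and Hif1a. Slamf1, Cd34, Kdm5d, Eif2s3y and Xist were named in the check of the samples against their labels. Alternatives were an intensity trend or robust prior, a filter at the median intensity, quantile, median and cyclic loess scaling, the mean of a gene's rows, the sample letter as a block, a threshold of 0.1 and leaving out each array.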

Additional observations from a re-analysis of the deposited data

How the results depend on the processing

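The members kept their direction in the alternative fits run, 13 for Cish and Socs2, which the intensity filter leaves out, and 14 for the others, except Socs1 in 2 and Stat5b in 1, neither of them called in any. Pim1 was called in 7 of the 14 and Pim2 in 11. The count of 2 members past the threshold held with the other priors, the intensity filter, the other scalings, the mean of a gene's rows and the looser threshold, and ranged from 0 to 1 when single arrays were left out. With the letter of the sample title as a replicate block it was 1, Pim2, and 274 genes were called in all. The letters are not known to pair mice: deviations from the group means correlated at -0.04 to 0.06 between same-letter arrays. The 286 genes called became 438 with the intensity filter, 676 at the threshold of 0.1 and 53 to 250 without single arrays: leaving out control a or b gave 126 or 53, and leaving out deleted a, b or c gave 145, 84 or 143. The median log2 fold change of all genes stayed between 0.0002 and 0.04. Signal over background could not be judged row by row, which bears most on Cish and Socs2, whose values lie near the median of all values.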
